A study of Mus musculus with 18 samples.

Results

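The Fc gamma receptors and the paired immunoglobulin-like receptors of myeloid cells are followed here through 7 genes of mouse cortex, of 13784 genes in each of 3 tables deposited by the authors: Fcgr3 and Fcer1g of the activating arm, Fcgr2b, Pirb, Lilrb4a and Sirpa of the inhibitory arm, and Igsf6. They were found by symbol in the tables, and all 7 were present. The set was chosen by the responses of these receptors to lipopolysaccharide (LPS) in these same data, so their LPS values are given as a description and support nothing.

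The study measured bulk RNA of the cortex from mice with a conditional knockout (cKO) of the chromatin remodeller Chd8 in astrocytes and from control mice, at baseline and during neuroinflammation. Control mice received saline (4 libraries) or LPS (5 libraries), and cKO mice received saline (4 libraries) or LPS (5 libraries). LPS, an outer-membrane component of bacteria that sets off an innate immune response, was injected intraperitoneally at 5 mg/kg into mice aged 4 to 6 months, and tissue was taken 72 hours later. This age is given for the LPS libraries alone, and the age of the saline mice is not known here. Groups come from the genotype label, since Saline stands in every one of the 18 titles. The Cre driver, the Chd8 allele and the genotype of the controls are not given in the labels, and nothing there states that each library is a separate animal, so p-values measure the spread between these libraries.

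Fc gamma receptors bind the constant region of IgG and tie antibody to phagocytosis and cytokine release. Activating members signal through an immunoreceptor tyrosine-based activation motif (ITAM), which lies on the FcR gamma chain and recruits the kinase Syk, whereas inhibitory members carry an inhibitory motif (ITIM) that recruits the phosphatases SHP-1 or SHIP-1. In the brain these receptors are carried by microglia and by macrophages of the brain's borders. PIR-B and SIRP-alpha have also been described on neurons, PIR-B as a receptor for MHC class I and for myelin proteins, and SIRP-alpha as a receptor for CD47.

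The stretches of promoter are shown because 6 of the 7 genes were higher together after LPS. RefSeq promoter windows (assembly GRCm38.p6, while the tables use GRCm39) were matched for 5 of the 7 genes. For each gene the 200 bases before an annotated start are printed 5′ to 3′ on the gene's strand. Fcgr3 has a second annotated start, which is not printed. Capitals mark the core GAGGAA, or its reverse complement, of the sequence bound by PU.1, a transcription factor of myeloid cells.
Fcgr2b (chr1:170976072-170976271, minus strand): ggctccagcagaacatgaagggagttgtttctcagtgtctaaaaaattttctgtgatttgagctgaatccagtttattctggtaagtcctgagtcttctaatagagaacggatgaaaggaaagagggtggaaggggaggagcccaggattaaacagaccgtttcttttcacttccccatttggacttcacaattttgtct
Fcgr3 (chr1:171059404-171059603, minus strand): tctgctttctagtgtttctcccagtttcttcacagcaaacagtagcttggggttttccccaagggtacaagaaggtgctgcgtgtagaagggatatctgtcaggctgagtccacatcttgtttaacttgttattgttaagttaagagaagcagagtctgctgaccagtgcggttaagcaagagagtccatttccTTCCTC
Fcer1g (chr1:171234350-171234549, minus strand): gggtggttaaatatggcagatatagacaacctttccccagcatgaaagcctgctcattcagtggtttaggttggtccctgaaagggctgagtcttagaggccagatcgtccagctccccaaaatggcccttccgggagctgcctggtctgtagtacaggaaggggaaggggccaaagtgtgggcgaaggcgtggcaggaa
Pirb (chr7:3720383-3720582, minus strand): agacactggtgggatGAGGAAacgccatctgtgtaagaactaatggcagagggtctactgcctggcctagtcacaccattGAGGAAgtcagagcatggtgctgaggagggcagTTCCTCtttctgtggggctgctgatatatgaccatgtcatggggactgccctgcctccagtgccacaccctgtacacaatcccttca
Igsf6 (chr7:121074531-121074730, minus strand): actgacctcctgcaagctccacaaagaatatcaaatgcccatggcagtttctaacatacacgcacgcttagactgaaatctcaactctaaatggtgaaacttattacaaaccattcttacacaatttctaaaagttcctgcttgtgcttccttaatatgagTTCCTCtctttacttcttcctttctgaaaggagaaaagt

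The PU.1 core was present in the windows of 3 of the 5 genes, Fcgr3, Pirb and Igsf6, and in 28.3% of all 32851 RefSeq promoter windows of 300 bases, searched on both strands. In Fcgr3 the match began 6 bases before the printed start and 15 bases before its second annotated start. In Igsf6 it began 39 bases before the start. Pirb held 3 matches, which began 185, 120 and 87 bases before its start. The NF-kB pattern of GGGA and CC with any 4 bases between them was found in 4 of the 5 windows (Fcgr2b, Fcgr3, Fcer1g and Pirb) and in 20.7% of all windows. The C/EBP pattern TTNNGNAA was found in 3 of the 5 (Fcgr3, Pirb and Igsf6) and in 40.7% of all windows. One C/EBP match of Pirb overlaps its PU.1 match that begins at 120 bases. The STAT pattern TTCNNNGAA (8.3% of all windows) and the AP-1 pattern TGANTCA (7.81%) matched none of the 5. These matches describe letters and not binding.

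After LPS, 6 of the 7 receptor genes were higher in control cortex and 5 of the 7 in cKO cortex, at a false discovery rate (FDR) below 0.05 in the authors' deposited tables. The share of all genes called higher was 6.46% in controls and 10.9% in cKO mice, and nothing is read from the receptors' counts beside it, because these contrasts chose them. The median log2 fold change of the 7 genes was 1.89 in controls and 1.72 in cKO mice, computed from the authors' deposited tables, against a median of 0.00 over all genes in each. Sirpa was near 0 in both. Bulk tissue cannot tell apart more cells that carry a receptor from more receptor RNA per cell.

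Of the activating arm, Fcgr3 encodes the low-affinity IgG receptor Fc gamma RIII. Its level, back-calculated from the authors' deposited tables as CPM (read counts scaled to a fixed library total), was 8.64 in control saline, 22.0 in control LPS, 9.84 in cKO saline and 18.5 in cKO LPS. The saline groups thus lay close together and both LPS groups above them. In the authors' deposited table for controls, the log2 fold change after LPS was 1.35 ± 0.15 (SE, 95% interval 1.02 to 1.68). In cKO mice it was 0.91 ± 0.31 (0.23 to 1.60) in the authors' deposited table, with an FDR of 0.0632, so Fcgr3 was just outside the threshold there.

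Fcer1g encodes the FcR gamma chain, the ITAM-bearing subunit that Fc gamma RIII and other activating receptors need. Its back-calculated levels from the authors' deposited tables were 2.90 CPM in control saline, 7.26 in control LPS, 2.58 in cKO saline and 6.18 in cKO LPS. Fcer1g was more alike between genotypes than Fcgr3 in its LPS fold, as values without a test. The log2 fold change was 1.33 ± 0.19 (0.89 to 1.76) in controls in the authors' deposited table. It was 1.26 ± 0.30 (0.58 to 1.94) in cKO mice in the authors' deposited table, with an FDR of 0.0222.

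Of the inhibitory arm, Fcgr2b encodes Fc gamma RIIB, the only inhibitory receptor among the classical Fc gamma receptors, and lies beside Fcgr4 and Fcgr3 on chromosome 1. From the authors' deposited tables its level was 1.26 CPM in control saline, 6.65 in control LPS, 1.67 in cKO saline and 5.53 in cKO LPS. This inhibitory receptor had a larger LPS fold than its activating neighbour Fcgr3 in both genotypes, a difference between genes that was not tested. In the authors' deposited table for controls it was 2.40 ± 0.22 (1.92 to 2.89), a 5.29-fold difference. In cKO mice it was 1.72 ± 0.45 (0.72 to 2.73) in the authors' deposited table, with an FDR of 0.0290, the highest among the 5 called members.

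Pirb encodes PIR-B, the inhibitory member of the paired immunoglobulin-like receptors. It had the largest LPS fold of the 7 genes in both genotypes and was among the lowest in saline. Back-calculated from the authors' deposited tables, it stood at 0.230 CPM in control saline and 0.330 in cKO saline, and at 2.91 in control LPS and 3.07 in cKO LPS. With the mean log2 CPM read as a mean of log2 values, these levels are 1.63 to 1.83 times as high, at 0.419 and 0.536 CPM in saline and 5.31 and 4.99 CPM after LPS. The log2 fold change in the authors' deposited table was 3.66 ± 0.44 (2.67 to 4.66) in controls, the seventh largest of 13784 genes. It was 3.22 ± 0.64 (1.79 to 4.65) in cKO mice in the authors' deposited table. Pirb neighbours its activating relatives Pira1 and Pira2, whose sequences are near copies, so how reads were shared among them is uncertain.

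Lilrb4a encodes gp49B, an ITIM receptor of myeloid and mast cells. Its levels from the authors' deposited tables were 0.408 CPM in control saline, 1.52 in control LPS, 0.364 in cKO saline and 2.34 in cKO LPS. Lilrb4a was higher in cKO LPS than in control LPS by the estimates of both tables that hold each group. Those tables share the LPS libraries, so the estimates are not independent. In the authors' deposited table for genotype it did not pass (FDR = 0.568). The log2 fold change was 1.89 ± 0.26 (1.31 to 2.48) in controls and 2.69 ± 0.39 (1.81 to 3.57) in cKO mice, in the authors' deposited tables. Its annotated span overlaps the coding gene Gm49339 on the same strand, and its neighbour Lilr4b is a near copy, so the reads given to Lilrb4a are uncertain.

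Igsf6 encodes an immunoglobulin superfamily protein of macrophages and dendritic cells. Back-calculated from the authors' deposited tables, it was at 0.484 CPM in control saline, 2.36 in control LPS, 0.331 in cKO saline and 2.10 in cKO LPS. The LPS groups were again far above the saline groups. The log2 fold change was 2.29 ± 0.20 (1.85 to 2.73) in controls and 2.66 ± 0.53 (1.49 to 3.84) in cKO mice, in the authors' deposited tables. Igsf6 lies within the span of Mettl9 on the opposite strand. The libraries were stranded per the labels, but whether counting used strand is not stated there. In the authors' deposited tables Mettl9 itself had log2 fold changes of -0.08 in controls and -0.07 in cKO mice, neither of them past the threshold.

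Sirpa encodes SIRP-alpha, which passes the inhibitory signal of CD47 against phagocytosis. It was at 463 CPM in control saline, 472 in control LPS, 471 in cKO saline and 463 in cKO LPS, back-calculated from the authors' deposited tables. The order of these 4 levels carries no information, since the LPS log2 fold changes were 0.03 ± 0.06 (-0.10 to 0.16) in controls and -0.03 ± 0.05 (-0.14 to 0.09) in cKO mice in the authors' deposited tables. Its intervals are the narrowest of the set and exclude, for whole cortex, changes of the size seen in the other 6 genes. In control saline its level was above the 225 CPM summed over 10 marker genes of myeloid cells. Of these markers Coro1a, which did not rise after LPS, had the highest level there (6.68 log2 CPM). Whether Sirpa changed in myeloid cells alone was not tested.

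**Figure D1:**
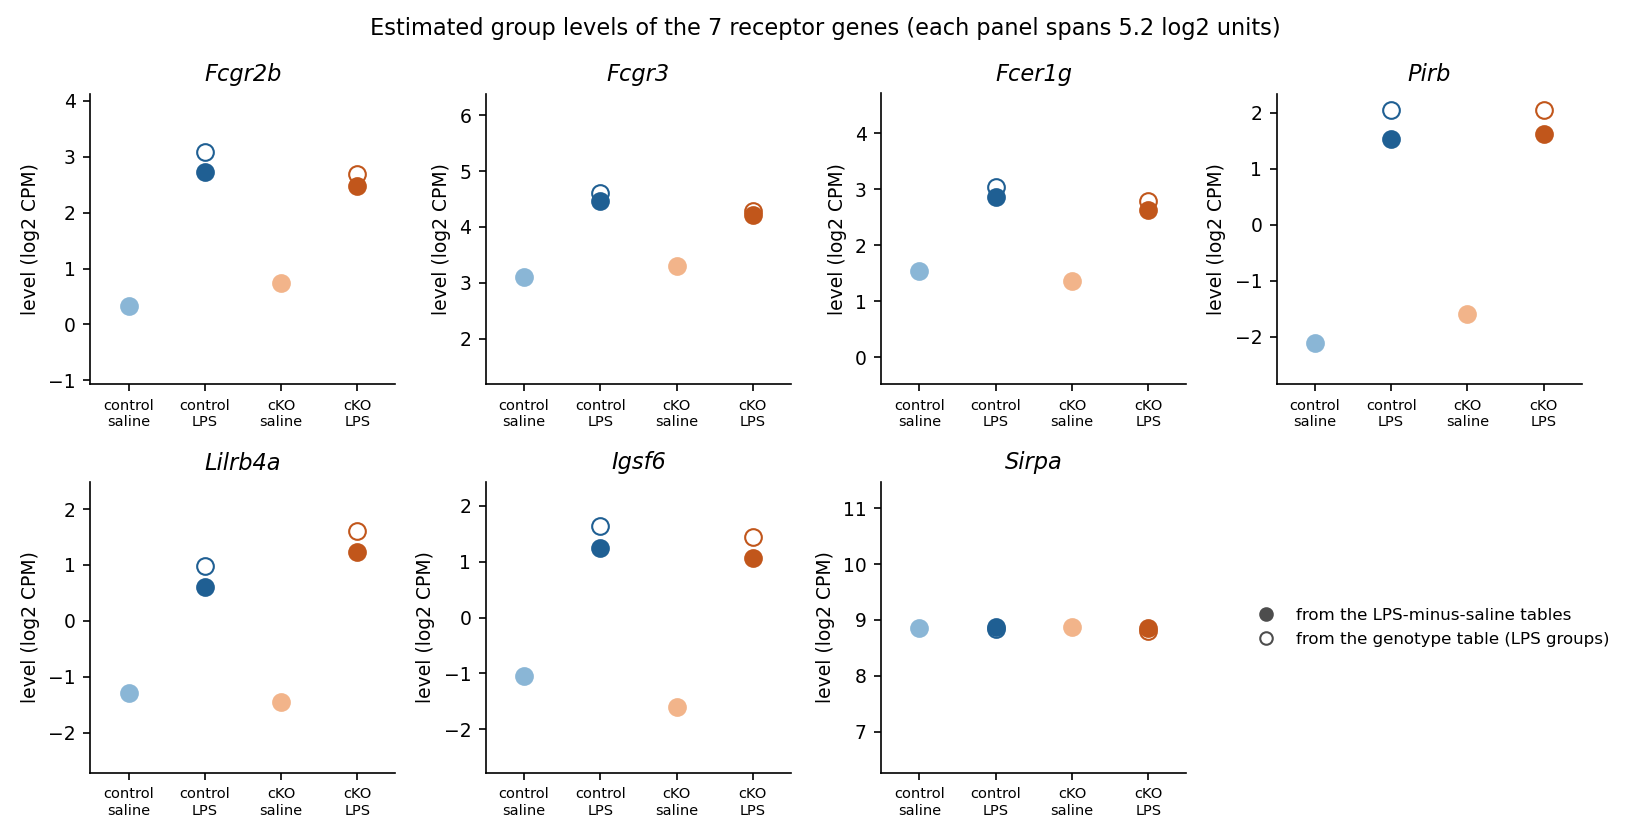
Group levels of the 7 receptor genes (log2 CPM), back-calculated from the authors' deposited tables for the 4 groups. Filled points come from the LPS-minus-saline tables and open points from the genotype table, which gives a second estimate for the LPS groups; 6 genes stand higher in both LPS groups and Sirpa is level.

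A group that stands in a pair of tables gave a pair of estimates of its level, because each table came from its own fit. Across the 7 genes and both LPS groups, the estimate from the genotype table lay between -0.05 and 0.51 log2 units from the other. The widest gap was that of Pirb in control LPS, at 1.54 and 2.05 log2 CPM. The levels are therefore estimates with no SD, and values per library were not analysed here.

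Per kilobase of exon (GENCODE M21 gene models), Sirpa was the highest of the 7 in control saline, at 94.2 CPM per kb. Fcgr3 followed at 4.97 and Fcer1g at 3.31, then Igsf6 at 0.222 and Fcgr2b at 0.217, Lilrb4a at 0.0780 and Pirb at 0.0514. In control LPS, Sirpa stood at 96.1 CPM per kb, Fcgr3 at 12.7 and Fcer1g at 8.30. Fcgr2b at 1.15 and Igsf6 at 1.09 came next, followed by Pirb at 0.650 and Lilrb4a at 0.290. After LPS, then, Pirb stood above Lilrb4a and Fcgr2b above Igsf6, and the remaining order was as in saline. The spread of these levels is unknown, so whether neighbours in the order differ was not tested.

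Pirb, Lilrb4a and Igsf6 may be present in the tables only through their LPS groups, but no gene filter is described. Lilrb4a had the lowest mean log2 CPM of all 13784 genes in the control table, and Igsf6 and Pirb were the 22nd and 62nd from the bottom. A gene at their saline levels in every library would lie below the lowest mean in that table, 0.034 log2 CPM. In the cKO table the lowest mean was -0.922 log2 CPM.

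The genotype comparison asks whether loss of Chd8 in astrocytes changed the receptors in LPS-treated cortex. None of the 7 genes passed the threshold in the authors' deposited table, and 0 of the 7 had an unadjusted p below 0.05. Over all genes, 0.00725% were called (1 gene) and 12.3% had an unadjusted p below 0.05. The estimates of 6 of the 7 genes lay below 0, with a median of -0.19 against 0.00 for all genes. Of these 6, Pirb (-0.0002) and Sirpa (-0.03) were barely below it. Over all genes, 50.5% lay above 0.

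The genotype estimates had wide intervals for every receptor gene but Sirpa. In the authors' deposited table, cKO minus control after LPS was -0.32 ± 0.34 (95% interval -1.09 to 0.45) for Fcgr3 and -0.26 ± 0.37 (-1.09 to 0.58) for Fcer1g. It was -0.40 ± 0.50 (-1.54 to 0.75) for Fcgr2b and 0.00 ± 0.58 (-1.31 to 1.31) for Pirb in the authors' deposited table. Lilrb4a had the one estimate above 0, at 0.63 ± 0.41 (-0.32 to 1.57) with an FDR of 0.568 in the authors' deposited table, the lowest FDR of the 7. Igsf6 was at -0.19 ± 0.47 (-1.26 to 0.89) and Sirpa at -0.03 ± 0.05 (-0.15 to 0.08) in the authors' deposited table. The interval of Sirpa lies within 0.15 log2 units of 0, whereas that of each of the other 6 genes spans 0 and reaches at least 1.09 log2 units to one side.

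Whether cKO and control mice responded unequally to LPS was tested gene by gene, from a pair of tables that share no library, with Benjamini-Hochberg adjustment over all 13784 genes. None of the 7 receptors passed, and 0 had an unadjusted p below 0.05. Over all genes, 0.00725% passed and 6.52% had an unadjusted p below 0.05. The difference, cKO response minus control response, was 0.79 ± 0.80 log2 units (-0.78 to 2.37, adjusted p = 0.900) for Lilrb4a. It was -0.68 ± 0.77 (-2.18 to 0.82, adjusted p = 0.916) for Fcgr2b and -0.44 ± 0.47 (-1.37 to 0.49, adjusted p = 0.907) for Fcgr3. So the loss of the Fcgr3 call in cKO mice does not show a different response there. The standard errors of these differences were taken from the p-values, and are larger than those of the deposited comparisons would give. The intervals for Pirb (-2.89 to 2.00) and Igsf6 (-1.37 to 2.13) are wide, and that for Fcer1g runs from -1.09 to 0.96. Sirpa had the narrowest, -0.21 to 0.10.

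**Figure D2:**
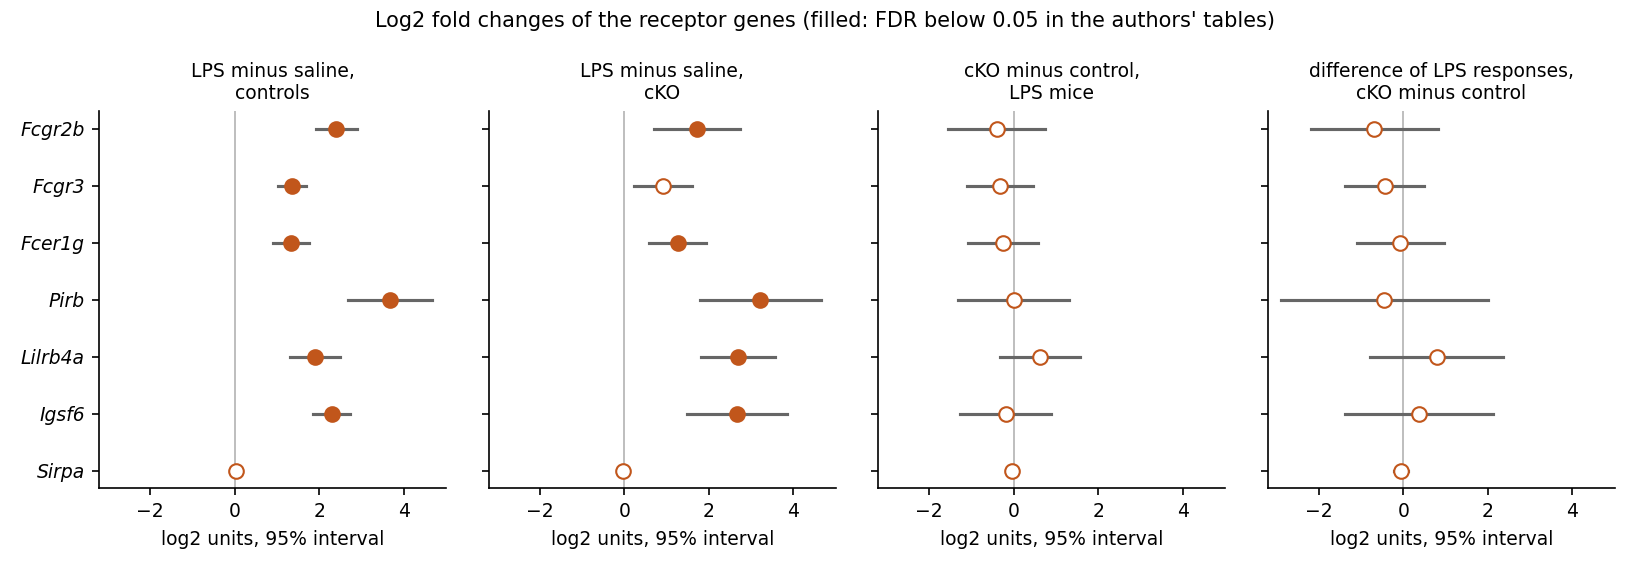
Log2 fold changes of the 7 receptor genes with 95% intervals (lines), in the 3 deposited comparisons and in the difference of the LPS responses. The difference panel uses larger standard errors, taken from the p-values. Filled points passed the FDR threshold of 0.05; both LPS panels hold filled points (6 and 5), and every interval in the genotype and difference panels crosses 0.

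A saline comparison of the genotypes was not analysed here, but the 3 deposited fold changes fix a point estimate of it, without a test. From the authors' deposited tables, the estimate of cKO minus control after saline was 0.44 log2 units for Pirb, at the 99.7th percentile of all genes, and 0.28 for Fcgr2b, at the 98.7th. Igsf6 was at -0.56, with 0.363% of genes below it, Fcer1g at -0.19 and Lilrb4a at -0.16. Fcgr3 was at 0.12 and Sirpa at 0.02. The members thus stood on both sides of 0, with a median of 0.02, and the widest values belong to Igsf6 and Pirb, whose saline levels were the lowest with that of Lilrb4a.

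The partners of the receptors were followed in 5 lists. Of other Fc receptors, 4 of 14 listed genes were measured. Fcgr1, the high-affinity IgG receptor, rose after LPS in the authors' deposited tables by 1.16 ± 0.29 in controls (FDR = 0.0374) and 1.35 ± 0.26 in cKO mice (FDR = 0.0114). It was the 1 of 4 that rose in each genotype. Fcrls, a microglial Fc receptor-like gene named here after its values were seen, fell in cKO mice by 0.55 ± 0.13 on the log2 scale (FDR = 0.0218) in the authors' deposited table, and in controls was at 0.66 ± 0.20 (FDR = 0.0614). Fcgr4 was not analysed here.

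Of other paired and inhibitory myeloid receptors, 6 of 42 were measured, and 3 rose in controls and the same 3 in cKO mice. In the authors' deposited tables Cd300c2 rose by 1.59 ± 0.16 in controls and 1.44 ± 0.22 in cKO mice. Cd33, a sialic acid receptor, rose by 1.24 ± 0.13 and 0.94 ± 0.22 in the authors' deposited tables. Trem2, a lipid receptor of microglia that signals through Tyrobp, rose by 0.90 ± 0.11 and 0.45 ± 0.13 in the authors' deposited tables. Lilrb4b was not analysed here. The list's median log2 fold change was 0.56 in controls and 0.30 in cKO mice.

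Of ITAM signalling genes 15 of 19 were measured. Of these, 9 rose in controls and 4 in cKO mice, and none fell. Tyrobp, the ITAM adaptor DAP12, rose by 1.12 ± 0.13 in controls and 0.90 ± 0.19 in cKO mice in the authors' deposited tables. Pik3ap1, an adaptor for PI3 kinase, rose by 1.46 ± 0.24 and 1.20 ± 0.33 in the authors' deposited tables. Lcp2, the adaptor SLP-76, rose in controls by 1.37 ± 0.24 in the authors' deposited table and was at 0.67 ± 0.26 in cKO mice (FDR = 0.0979). Syk, the kinase that ITAMs recruit, passed in neither, at 0.52 ± 0.19 (FDR = 0.0983) and 0.21 ± 0.23 (FDR = 0.528) in the authors' deposited tables.

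Of ITIM signalling genes 9 of 12 were measured. Of these, 5 rose in controls and 3 in cKO mice, and none fell. Ptpn6, which encodes the phosphatase SHP-1, rose by 1.22 ± 0.18 in controls and 1.21 ± 0.26 in cKO mice in the authors' deposited tables. Inpp5d, which encodes SHIP-1, rose by 0.85 ± 0.08 and 0.56 ± 0.12 in the authors' deposited tables. Ptprc, the phosphatase CD45, rose by 1.49 ± 0.19 and 1.01 ± 0.31 in the authors' deposited tables. Csk, the kinase that restrains Src kinases, rose in controls by 0.35 ± 0.07 and was at 0.13 ± 0.08 in cKO mice (FDR = 0.261) in the authors' deposited tables.

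Of a list of ligands and immunoglobulin chains, 13 of 19 were measured, and 4 rose in controls. Fn1, fibronectin, rose by 1.38 ± 0.10 in controls and 1.16 ± 0.18 in cKO mice in the authors' deposited tables. The MHC class I genes, whose products PIR-B binds, also rose. In the authors' deposited tables H2-K1 rose by 1.03 ± 0.11 and 0.91 ± 0.16, and H2-D1 by 0.88 ± 0.11 and 0.65 ± 0.15. B2m, the light chain of MHC class I, rose in controls by 0.74 ± 0.07 and was at 0.38 ± 0.14 in cKO mice (FDR = 0.0784) in the authors' deposited tables. Cd47, the ligand of SIRP-alpha, was near 0 like its receptor, at 0.07 ± 0.06 in controls (FDR = 0.537) and 0.01 ± 0.06 in cKO mice (FDR = 0.930) in the authors' deposited tables.

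In cKO mice 3 of the 13 measured genes of the ligand list rose and 2 fell. Both that fell are immunoglobulin heavy chains, named after their values were seen. Of all genes, 8.52% fell in cKO mice and 3.31% in controls. Ighg2c, an IgG heavy chain, fell by 1.13 ± 0.31 on the log2 scale in cKO mice (FDR = 0.0343) in the authors' deposited table, and was at 0.09 ± 0.28 in controls (FDR = 0.871). Ighm, the IgM heavy chain, fell by 1.22 ± 0.37 in cKO mice (FDR = 0.0457) in the authors' deposited table. It was at -0.46 ± 0.21 in controls (FDR = 0.173), and is not a chain of the IgG that Fc gamma receptors bind. In none of the 5 lists did a gene pass in the genotype comparison. There, 6 of the 7 receptors lay below 0, Pirb and Sirpa barely so. Of ITAM signalling genes 13 of 15 (median -0.26) and of ITIM signalling genes 8 of 9 (median -0.25) lay below 0. So did 8 of 10 pan-myeloid markers (median -0.40), 10 of 12 microglial markers (median -0.31) and 7 of 8 endothelial markers (median -0.23). Other lists were even: 2 of 4 border macrophage markers (median -0.08) and 2 of 4 other Fc receptors (median -0.03) lay below 0. Of astrocyte markers 4 of 8 did (median 0.17). The part of these cell markers in the receptors' estimates was not tested.

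**Figure D3:**
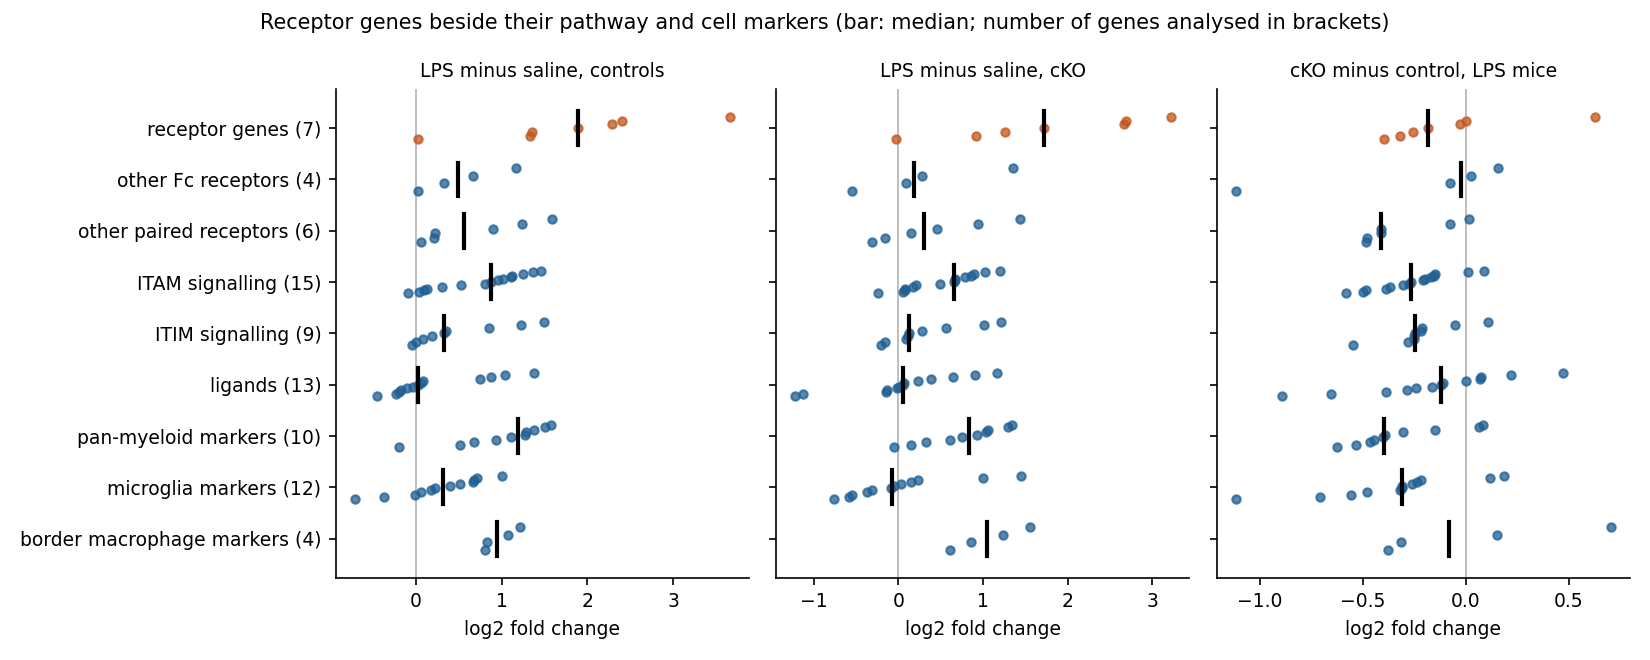
Log2 fold changes of the 7 receptor genes, of the 5 pathway lists and of 3 lists of cell markers in the 3 deposited comparisons; each point is a gene, the bar is the median, and the horizontal scales differ between panels. The receptor genes, chosen by the LPS contrasts, have medians of 1.89 and 1.72 there, and the median of every list shown lies below 0 in the genotype panel.

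Markers of the cells that carry these receptors moved with LPS too. Of 10 pan-myeloid genes 9 rose in controls and 6 in cKO mice, with a median log2 fold change of 1.19 and 0.84. Their summed level went from 225 CPM in control saline to 351 in control LPS, and from 218 in cKO saline to 296 in cKO LPS. Coro1a, which did not rise, had the highest level of the 10 in control saline, at 6.68 log2 CPM. The sums thus rose less, in proportion, than the other genes of the list did together. Fcgr2b, Pirb, Lilrb4a and Igsf6 lay above the highest pan-myeloid value in both genotypes, which was 1.57 for Itgam in controls and 1.34 for Itgb2 in cKO mice in the authors' deposited tables. Fcgr3 and Fcer1g lay within the pan-myeloid range. Sirpa lay above its lowest gene alone, Coro1a (-0.19 in controls and -0.05 in cKO mice). It was below the next lowest, Cd53 (0.51 and 0.15), in both genotypes. The receptors were chosen by these contrasts and the markers were not, so nothing is read from where the receptors lie beside them. The part of cell number in the receptors' values was not tested.

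**Figure D4:**
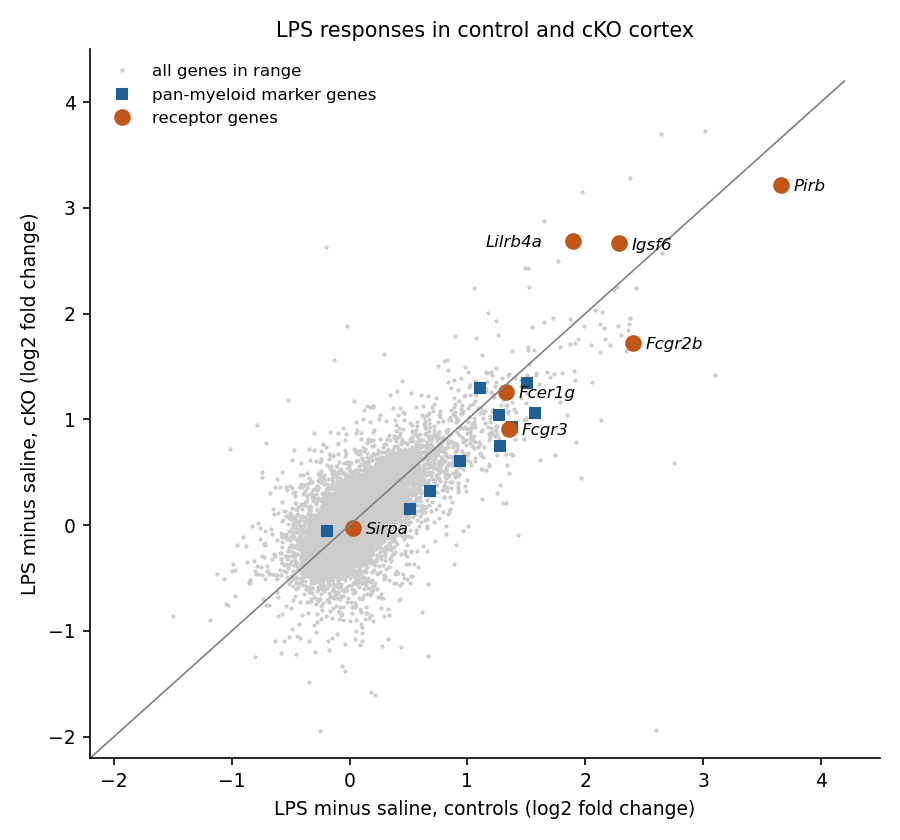
LPS log2 fold change in controls (horizontal) and in cKO mice (vertical), which share no library, for 13773 genes in range, 10 pan-myeloid markers and the 7 receptors; the line marks equal responses and 11 genes lie outside the plot. Fcgr2b, Pirb, Lilrb4a and Igsf6 lie beyond all pan-myeloid markers on both axes, and Fcgr3 and Fcer1g lie among them. Sirpa lies below all of them but Coro1a. The receptors were chosen by these contrasts, so their places are a description.

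Of 12 microglial markers, 5 rose and none fell in controls, and 3 rose and 2 fell in cKO mice, with summed levels of 357 CPM in control saline, 511 in control LPS, 343 in cKO saline and 465 in cKO LPS. Sparc, which astrocytes and endothelial cells also express, carried much of this rise. Without it, a step chosen after its values were seen, the other 11 summed to 266 CPM in control saline, 329 in control LPS, 270 in cKO saline and 266 in cKO LPS. The list's median log2 fold change was 0.31 in controls and -0.07 in cKO mice. In cKO mice P2ry12 (-0.58) and Fcrls (-0.55) fell, whereas Sparc (1.44), Sall1 (1.00) and Cx3cr1 (0.24) rose, in the authors' deposited table. Endothelial markers, 8 of 8 measured, moved with LPS as well: 6 rose in controls (median 0.53) and 4 in cKO mice (median 0.38). Of 8 astrocyte markers 1 rose and 1 fell in controls and 3 fell in cKO mice, and none of 8 oligodendrocyte markers passed. All 4 measured border macrophage markers of 8 listed rose in controls and 3 in cKO mice, and their summed level was 31.7 CPM in control saline, 68.4 in control LPS, 31.6 in cKO saline and 58.6 in cKO LPS. Of monocyte markers 2 of 8 were measured. Lyz2, which microglia and macrophages also express, rose by 2.37 in controls and 1.84 in cKO mice in the authors' deposited tables, and Vcan passed in neither. Of neutrophil markers 1 of 10 was measured, Csf3r, which rose by 1.68 and 1.45 in the authors' deposited tables. S100a8, S100a9 and Ly6g were not analysed here, nor were any of the 5 mast cell markers. Of the other markers, 2 of 6 for dendritic cells and 1 of 7 for T and NK cells were measured and none of these passed, and of 7 for B and plasma cells Ighm alone was measured.

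Of neuronal markers all 10 were measured, with a summed level between 5258 and 5453 CPM over the 4 groups, so the labelled tissue carries its defining markers. Chd8, measured in whole cortex, differed by 0.02 ± 0.05 between cKO and control mice after LPS (FDR = 0.901) in the authors' deposited table, which checks nothing about astrocytes. Striatal markers, 7 of 7 measured, summed to 338 CPM in control LPS and 498 in cKO LPS, and all 7 lay above 0 in the genotype comparison. Choroid plexus markers summed to 382 CPM in control saline and 233 in control LPS. The part of such differences in tissue in the receptors' values was not tested. The Y-linked gene Ddx3y was at -7.19 log2 CPM in control saline, against 3.68 in control LPS, 5.87 in cKO saline and 5.71 in cKO LPS, back-calculated from the authors' deposited tables. The X-linked Xist was at 7.47 log2 CPM in control saline, 7.33 in control LPS, 4.35 in cKO saline and 5.91 in cKO LPS, back-calculated likewise. In the authors' deposited tables Ddx3y differed with LPS in controls (10.87, FDR = 0.0351) and did not pass in cKO mice (-0.16, FDR = 0.941). Xist passed in neither, at -0.14 (FDR = 0.938) and 1.56 (FDR = 0.598). The part of sex-linked expression in the receptors' values was not tested, nor its part in the difference of the LPS responses and the saline estimate.

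On the chromosome, the receptors have 37 coding neighbours that are not members (3 on each side in RefSeq order), of which 16 were measured. In controls 1 of the 16 passed, against 9.76% of all genes in either direction: Pdyn beside Sirpa, which rose by 0.72 in the authors' deposited table. In cKO mice 3 passed, against 19.5% of all genes: in the authors' deposited table Rps9 rose by 0.18, Pdyn rose by 0.90 and Usp31 fell by 0.45. These shares are near those of all genes. Fcgr2b and Fcgr3 neighbour each other and are not counted here.

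The 5 genes whose 3 log2 fold changes lay nearest to the receptors' median, by Euclidean distance among 13018 eligible genes, were C3ar1, C4b, Tlr2, Naip2 and Fam205a4. The distance was 0.0912 log2 units for C3ar1, the receptor of the complement fragment C3a, and 0.214 for C4b, a complement component. It was 0.295 for Tlr2, a pattern recognition receptor, 0.309 for Naip2, an inflammasome sensor, and 0.346 for Fam205a4. The likeness spans 3 comparisons of 4 groups that share libraries, and is a description.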

How the data were processed

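Cortex RNA of 18 mouse libraries in 4 groups was compared by the authors, and the 3 deposited tables hold comparisons only. The submitters' processing notes name the build GRCm39 and the tools edgeR 3.30.3, RSEM, STAR and cutadapt 3.5, without their roles or a gene filter. Each deposited row holds, per the file headers, the gene's mean log2 CPM, its log2 fold change, F (a score), p-value and FDR. Depth is unknown, because values per library were not analysed here.

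Fold changes were read as cKO minus control and LPS minus saline. With these signs, the gap between the levels that separate tables gave for a group had an SD of 0.0537 (control LPS) and 0.0503 (cKO LPS) over genes. With any sign turned, 1 of these SDs was at least 0.222. The standard error is the absolute log2 fold change over the root of F, and 95% intervals use the implied degrees of freedom (9.85 for LPS in controls, 9.76 for LPS in cKO, 8.66 for genotype). The difference of LPS responses took standard errors from the normal quantile of each deposited p-value, and was tested on simulated data. These standard errors are larger than those from F. Of 757 genes without a symbol, 705 were matched by ID, among them Ighm, Ighg2c and Trbc2. Analyses used Python 3.11.15, scipy 1.17.1 and pandas 2.3.3.

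The members and lists were chosen with earlier results of these data known. Named genes are the 7 members, up to 4 genes per pathway list with the largest absolute change among those past FDR 0.05 for LPS in controls, Chd8, Fcgr1, Fcgr4, Lilrb4b, Cd47, Tyrobp, Syk, Ptpn6, Inpp5d and the 5 nearest genes (mean log2 CPM of at least 0). A gene that this rule names is not reported here. Alternatives were a filter at a mean log2 CPM of 1, a minimum fold of 1.5, centring, a trend on expression, other standard errors and another reading of the mean log2 CPM.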

Additional observations from a re-analysis of the deposited data

How the results depend on the processing

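With genes below a mean log2 CPM of 1 left out, 3 in place of 6 receptors passed for LPS in controls and 2 in place of 5 in cKO mice, because Pirb, Lilrb4a and Igsf6 fall below that level and were not tested. With the trend on mean log2 CPM subtracted, the median log2 fold change of the receptors for LPS in controls was 1.59 in place of 1.89, and the cause was not tested. The same step turned the sign of values near 0, that of Sirpa for LPS in cKO mice (-0.03 to 0.02) and that of Pirb for genotype (0.00 to 0.03). Read as a mean of log2 values, the mean log2 CPM moved 12 of 28 back-calculated levels, by up to 1.83 times for Pirb and up to 1.43 times for the other 6 genes. Without genes below a mean log2 CPM of 1, the ITAM signalling genes past the threshold were 8 in place of 9 in controls and 3 in place of 4 in cKO mice. The other 157 values kept their direction and, where tested, their side of the threshold. With standard errors from F, no receptor passed the difference of the LPS responses (lowest adjusted p = 0.671). No paired analysis was possible because the tables hold comparisons only, with no column per library; leaving out each replicate was not run for the same reason. Low levels limit Pirb, Lilrb4a and Igsf6 most, whose saline levels were below 0.5 CPM, or up to 0.633 CPM under that other reading.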
